A study of Homo sapiens with 7 samples.

Results

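Metallothioneins are small proteins rich in cysteine that bind zinc, copper and cadmium. Most of their human genes lie side by side on chromosome 16, and zinc or cadmium induces many of them through the transcription factor MTF1, which binds short metal response elements in their promoters. Glucocorticoids and oxidative stress can raise them too, and silencing of MT1G by promoter methylation is known in several human cancers. The 10 genes described here, MT1B, MT1E, MT1F, MT1G, MT1H, MT1L, MT1M, MT1X, MT2A and MT3, were read by 17 of the 41000 probes on the microarray, and stand among 18646 genes with a named probe. A probe was taken when the platform annotation gave it exactly 1 symbol and that symbol was one of these genes. The family was chosen by measured values, because it had been seen higher with DNMT1 shRNA 51 and lower on the UHRF1 array. Values from those arrays, and any mean or difference that holds them, are therefore a description; where a fit across all genes held them, its count of members is printed and nothing is read from it.

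RNA of established human colorectal cancer cell lines was hybridised to 7 arrays, each of which read 2 dyes and gave a ratio of knockdown to control RNA. DLD1, HT29 and RKO cells each had 1 array with short hairpin RNA (shRNA) number 49 against DNMT1, the methyltransferase that copies DNA methylation after replication, and 1 array with number 51. HCT116 cells had 1 array with an shRNA against UHRF1, which brings DNMT1 to newly replicated DNA; its label gives a knockdown efficiency of 60%. Every control was the same line with a non-silencing control treatment. The dye of the knockdown RNA was Cy3 for shRNA 49 and Cy5 for shRNA 51 and UHRF1, so the hairpin and the dye cannot be told apart between the 2 sets of DNMT1 arrays. The 3 arrays of each hairpin are 3 different lines, so the p-value of a mean measures a spread that joins differences between lines with technical ones. The fits of the hairpin difference and of the lines hold the line as a term. Their spread joins how the hairpin difference varies between lines with technical differences. Each line had 1 array per hairpin, so the spread between cultures of a line was not measured. No time of harvest is given for the DNMT1 arrays, and the meaning of d14 in the UHRF1 title is not explained.

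All values are log2 ratios, knockdown over control, so 1 is a doubling. The log base and the direction are not stated in the sources used here: base 2 was assumed from the range of the values and the use of limma, so every fold and percent of control rests on it, and the direction was taken from DNMT1 itself, which was below control on all 6 DNMT1 arrays. In DLD1 it stood at 25.4% of control with shRNA 49 and 22.2% with shRNA 51, in HT29 at 23.8% and 52.8%, and in RKO at 10.4% and 19.7%. On the UHRF1 array the direction is less certain, since its 4 UHRF1 probes read -3.10, -2.06, -0.18 and 0.68. The value of 0.68 is a ratio that other probes of the array hold exactly, which makes it uncertain. Were the direction reversed, every sign given for that array would turn. The interquartile range over all probes was 0.78 to 0.97 on shRNA 51 arrays and 0.56 to 0.73 on shRNA 49 arrays. Of 41000 probes, 2610, 5073 and 5075 had no ratio in DLD1, HT29 and RKO with shRNA 51. With shRNA 49 these counts were 205, 352 and 329, and on the UHRF1 array 1729. Ratios do not show how strongly a gene was expressed, so the presence of epithelial markers could not be checked. Medians of 8 epithelial genes lay between -0.61 and 1.29 on the arrays and those of 11 genes of fibroblasts, endothelium and blood between 0.06 and 0.71, and their part in the results was not tested.

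The family stood above control with shRNA 51 and below it on the UHRF1 array, the arrays that chose it. Its median was 1.36 in DLD1, 1.77 in HT29 and 3.05 in RKO with shRNA 51, which is 2.56, 3.40 and 8.31 times control. It was -1.48 on the UHRF1 array, 0.36 times control. With shRNA 49 it stood at 0.001, -0.75 and -0.37 in DLD1, HT29 and RKO. Medians of all genes on the same arrays stayed between -0.018 and 0.053. In bulk RNA, fewer expressing cells and less RNA per cell cannot be told apart.

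**Figure D1:**
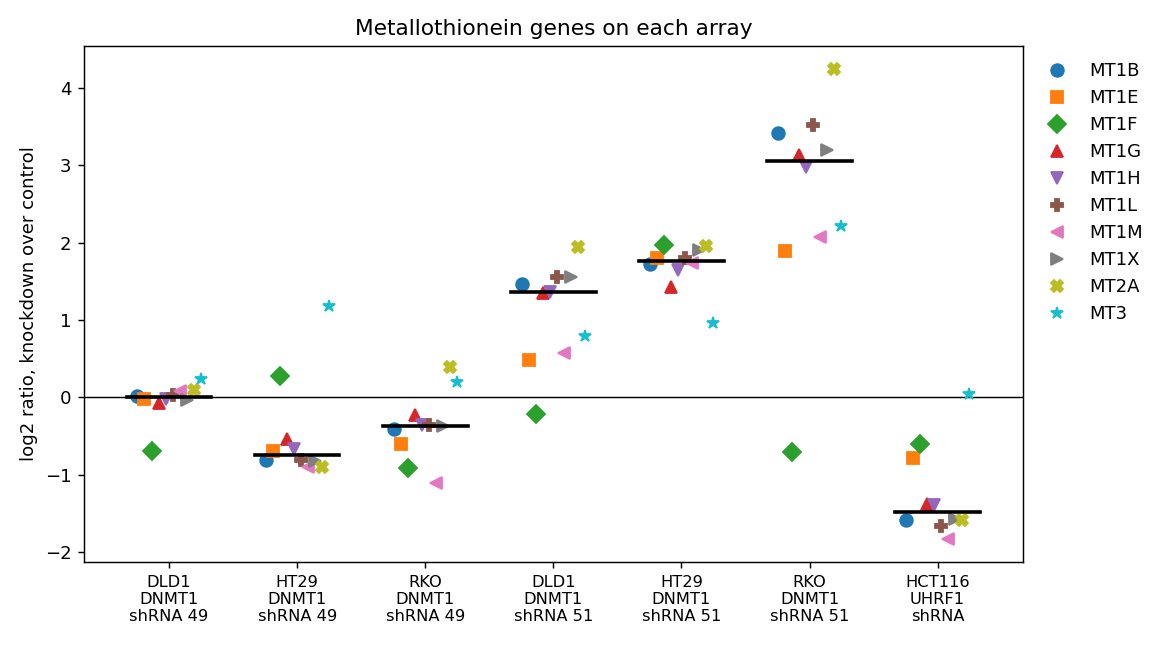
Log2 ratio of knockdown over control RNA (vertical axis) for each of the 10 metallothionein genes on each of the 7 arrays (horizontal axis). Each symbol is the mean of a gene's probes and each black bar is the median of the 10 genes. The medians were 1.36, 1.77 and 3.05 with DNMT1 shRNA 51, between -0.75 and 0.001 with shRNA 49, and -1.48 on the UHRF1 array, with MT1F and MT3 away from the others on several arrays.

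MT2A, the most widely expressed human metallothionein, had the highest mean with shRNA 51. It stood at 1.95 in DLD1, 1.95 in HT29 and 4.24 in RKO, or 3.85, 3.86 and 18.8 times control, and at 0.09, -0.90 and 0.39 with shRNA 49. On the UHRF1 array it was -1.59, which is 33.2% of control. All shRNA 51 arrays thus lay above all shRNA 49 arrays, and RKO was the highest of each set.

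MT1X and MT1G, both inducible by metals, also read highest in RKO with shRNA 51, but with shRNA 49 their highest line was DLD1. MT1X read 1.55, 1.90 and 3.19 in DLD1, HT29 and RKO with shRNA 51, -0.04, -0.82 and -0.38 with shRNA 49, and -1.56 on the UHRF1 array. MT1G read 1.35, 1.43 and 3.13 with shRNA 51, -0.07, -0.54 and -0.22 with shRNA 49, and -1.38 on the UHRF1 array. For both genes the sets did not overlap, and all shRNA 49 values, as means of the probes, were below 0. In DLD1 with shRNA 49, 1 probe of MT1G read 0.02. MT1H gave 1.36, 1.65 and 2.98 against -0.02, -0.67 and -0.36, with -1.39 on the UHRF1 array.

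MT1B and MT1L, the latter listed by RefSeq as a transcribed pseudogene, were read by 1 probe each and gave nearly the same numbers as these. MT1B stood at 1.46, 1.73 and 3.41 with shRNA 51, at 0.02, -0.81 and -0.41 with shRNA 49, and at -1.58 on the UHRF1 array. MT1L stood at 1.56, 1.80 and 3.51, at 0.03, -0.80 and -0.36, and at -1.67. Across the 7 arrays the 10 pairs that MT1B, MT1G, MT1H, MT1L and MT1X form had Pearson correlations from 0.993 to 1.000. These 5 genes were grouped after their values were seen, and all were read from the same RNA on the same arrays. Their 8 probes lay within 0.19 of each other in DLD1 with shRNA 49 and within 1.29 in RKO with shRNA 51. Transcripts of this family are close copies, so which copy each probe read is uncertain, and the number of separately measured genes may be lower than the number of symbols.

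MT1M and MT1E had lower values in RKO than that group. MT1M stood at 0.57 in DLD1, 1.73 in HT29 and 2.07 in RKO with shRNA 51, at 0.08, -0.89 and -1.10 with shRNA 49, and at -1.82 on the UHRF1 array, the lowest of the family there. MT1E averaged 0.49, 1.80 and 1.89 with shRNA 51, -0.02, -0.69 and -0.60 with shRNA 49, and -0.78 on the UHRF1 array. Its mean joins probes that disagree. One probe read 1.06, 1.80 and 2.73 with shRNA 51 and -1.71 on the UHRF1 array, while the other read -0.09 and 1.05 in DLD1 and RKO, had no value in HT29, and read 0.14 on the UHRF1 array. On 5 arrays that other probe holds a ratio which further probes of the array hold exactly, which marks it as uncertain; of the 118 ratios of the family, 6 are of this kind, and of all ratios on an array 34.0% to 44.0%.

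MT1F read highest in HT29 with shRNA 51, where the other members read highest in RKO. With shRNA 51 it was 1.97 in HT29 but -0.21 in DLD1 and -0.70 in RKO, where MT2A had its highest value. With shRNA 49 it was 0.28 in HT29, -0.70 in DLD1 and -0.91 in RKO, so HT29 was the highest line with both hairpins and the sets overlapped. On the UHRF1 array it stood at -0.60. Its correlations with the other members over the arrays lay between 0.13 and 0.46, against 27 of the 45 pairs of members with a correlation above 0.9. One probe read it.

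MT3, known as the growth inhibitory factor of the brain, is set apart by probes that differ. One read between -0.21 and 0.33 on all arrays. The other read 1.37, 1.67 and 4.08 in DLD1, HT29 and RKO with shRNA 51, 0.32, 2.22 and 0.61 with shRNA 49, and 0.07 on the UHRF1 array, so the largest gap between them was 3.75, in RKO with shRNA 51. The mean of both was 0.79, 0.96 and 2.21 with shRNA 51, 0.23, 1.18 and 0.20 with shRNA 49, and 0.04 on the UHRF1 array. MT3 was the only one of the 10 genes above 0 on every array, which rests on that 1 probe. Probes of MT2A and MT1X, in contrast, differed by at most 0.31 and 0.13.

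**Figure D2:**
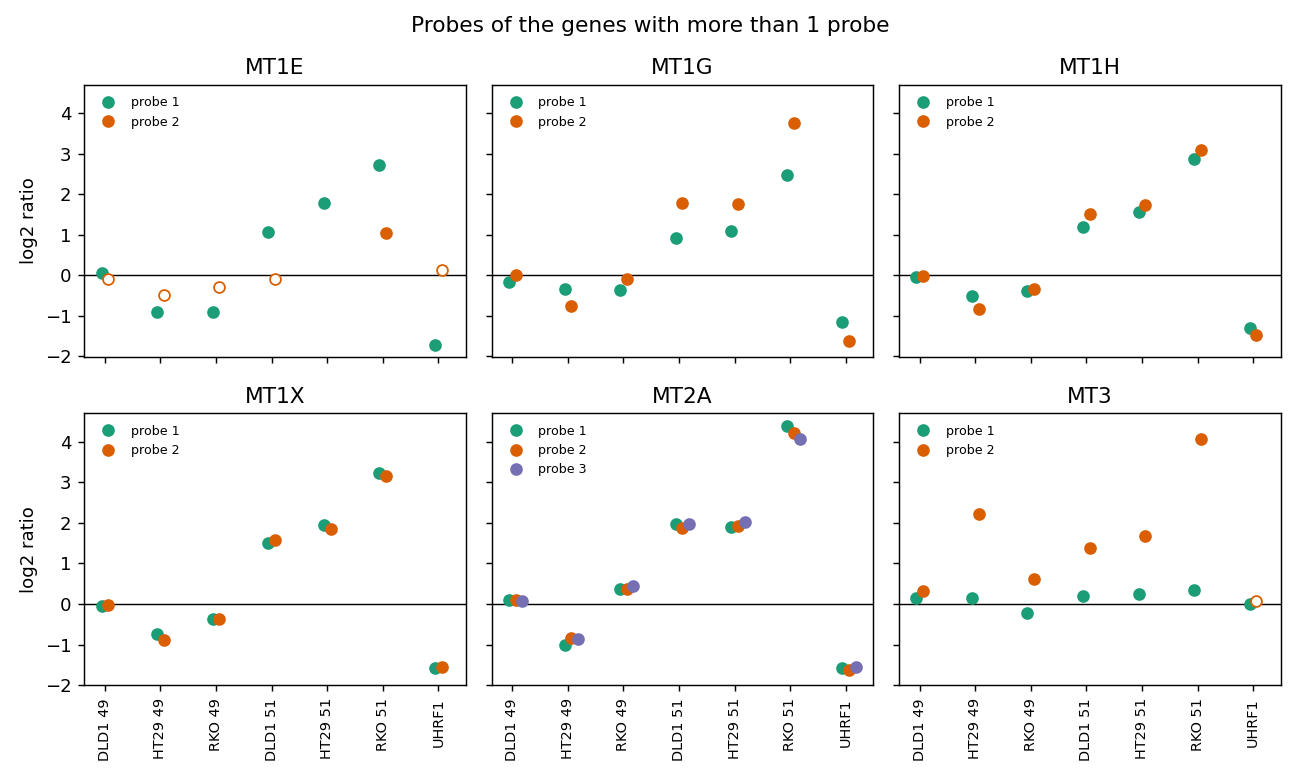
Log2 ratio of each probe (vertical axis, same scale in every panel) on the 7 arrays (horizontal axis, cell line with shRNA number, or UHRF1) for the 6 genes with more than 1 probe. Open circles are ratios that other probes of the array hold exactly. The probes of MT1H, MT1X and MT2A lay close together, while those of MT3 stood 3.75 apart in RKO with shRNA 51.

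Counts over the family are read against all genes. At least 2-fold higher on all 3 shRNA 51 arrays were 6 of the 10, MT1B, MT1G, MT1H, MT1L, MT1X and MT2A, and 1.51% of the 15829 genes with values there. At least 2-fold lower on the UHRF1 array were 7 of the 10, the same genes and MT1M, and 2.32% of 18175 genes. Both held for 6 of the 10 and for 0.0954% of 15727 genes, which is 15 genes in all. The 9 others, named here after their values were seen, were CLDN6, CSTA, DIO3, H2AC16, INHBB, LTB, MNDA, PLAU and TUSC3. All shRNA 51 arrays lay above all shRNA 49 arrays for 8 of the 10 members, with MT1F and MT3 as the exceptions, and for 10.8% of 15793 genes. Were the sign of the UHRF1 array turned, the same genes and shares would stand there as higher in place of lower. These arrays chose the family, so the counts describe it and support nothing.

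The shRNA 49 arrays were not used in choosing the family, and on them no member passed the test. The question was whether the mean of the 3 arrays differed from 0 by limma, with p-values adjusted over 18633 genes by Benjamini and Hochberg and a threshold of 0.05. MT1M had the lowest mean, -0.64 ± 0.27 (SE, n = 3, limma adjusted p = 0.462), and was below 0 on 2 of the 3 arrays. MT1X averaged -0.41 ± 0.22 (limma adjusted p = 0.521) and was below 0 on 3 of 3. Without HT29 its mean was -0.21, and that of MT1M was -0.997 without DLD1 and -0.41 without RKO. MT2A averaged -0.14 ± 0.28 (limma adjusted p = 0.874), with -0.90 in HT29 and 0.39 in RKO, and without the HT29 array its mean turned to 0.24. MT3 averaged 0.54 ± 0.25 (limma adjusted p = 0.489) and was above 0 on 3 of 3, with a mean of 0.22 without HT29.

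In all, 0 of 10 members were called, against 0.0268% of all genes called higher and 0% called lower. Without adjustment 0 of 10 were lower at p under 0.05, against 5.28% of all genes. Below 0 on all 3 shRNA 49 arrays were 4 of the 10, MT1E, MT1G, MT1H and MT1X, against 18.3% of 18433 genes. This count is of means over probes, and in DLD1 1 probe of MT1E (0.05) and 1 of MT1G (0.02) read above 0. The 5 genes called higher with shRNA 49 included the germ line genes CTAG1A (4.40 ± 0.21, limma adjusted p = 0.00880) and VCX3A (5.27 ± 0.41, limma adjusted p = 0.0390). Both have near-identical copies, and which copy was read is uncertain. The fit thus made calls with 3 arrays, but for means far above those of the members, -0.64 to 0.54. Whether it could call changes of the members' size is not shown by these calls. DNMT1 was lower in RKO with shRNA 49 (10.4% of control) than on any other array, and the family median there was -0.37. Of the DNMT1 arrays it was least reduced in HT29 with shRNA 51 (52.8%), where the median was 1.77. In RKO and DLD1 with shRNA 51 it stood at 19.7% and 22.2%, with medians of 3.05 and 1.36. In HT29 and DLD1 with shRNA 49 it stood at 23.8% and 25.4%, with medians of -0.75 and 0.001. A relation was not tested.

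**Figure D3:**
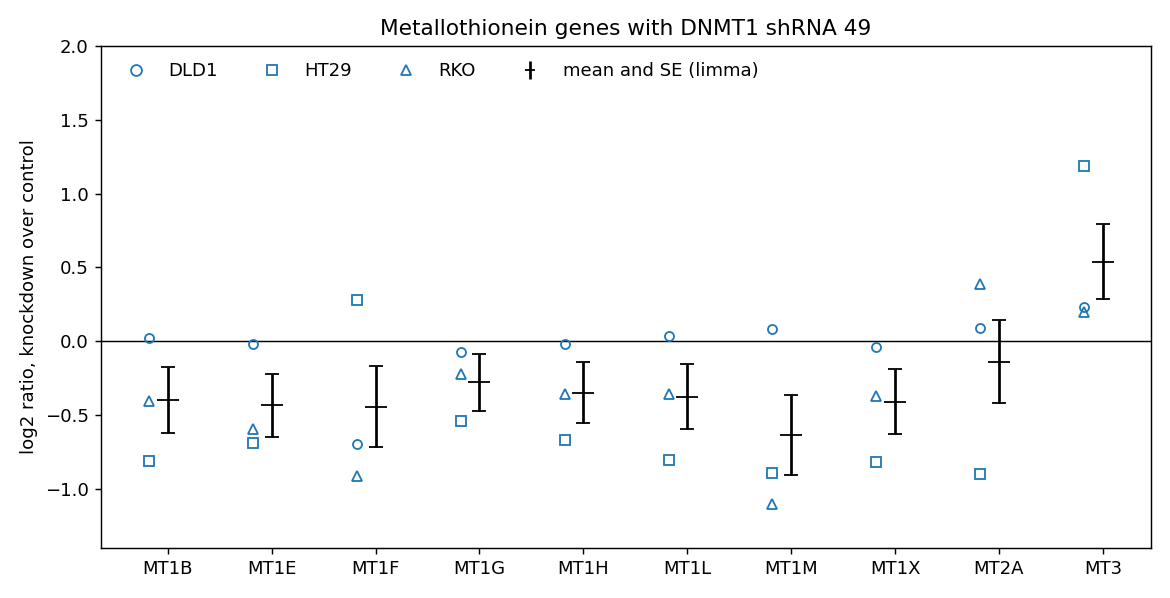
Log2 ratio (vertical axis) of the 10 metallothionein genes (horizontal axis) with DNMT1 shRNA 49. Blue symbols are the 3 lines and black bars the mean and its SE from limma (n = 3). MT1M had the lowest mean (-0.64) and MT3 the highest (0.54), and none passed the test.

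The mean of both hairpins in each line holds a shRNA 51 array, so differences between DLD1, HT29 and RKO are given as a description. MT2A averaged 2.31 in RKO, 1.02 in DLD1 and 0.53 in HT29. MT1F had the reverse order, 1.13 in HT29, -0.45 in DLD1 and -0.81 in RKO. MT1M had nearly equal means, 0.33, 0.42 and 0.49 in DLD1, HT29 and RKO. A limma F test over lines, with the hairpin as a covariate, called 0 of 10 members and 0% of 17623 genes. Without adjustment it gave 1 of 10 (MT1F) and 6.45% of genes, and nothing is read from these counts about the members. With shRNA 49 alone each line had 1 array, so no test between lines was possible without the arrays that chose the family.

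For the mean over all 6 DNMT1 arrays, which holds the arrays that chose the family, MT2A stood at 1.28, MT1L at 0.96, MT3 at 0.93 and MT1F at -0.04. The fit behind it called 0 of 10 members and 0.397% of 17623 genes, and the fit of shRNA 51 minus shRNA 49 called 0 of 10 and 0% of genes (1982 of 17623 had an unadjusted p under 0.05). Nothing is read from either about the members. Within a line, shRNA 51 minus shRNA 49 was 3.85 for MT2A, 3.56 for MT1X and 0.21 for MT1F in RKO, 2.85, 2.72 and 1.69 in HT29, and 1.86, 1.59 and 0.49 in DLD1.

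Promoter sequence was at hand for 4 of the 10 genes, MT2A, MT1B, MT1H and MT1X, from RefSeq on build GRCh38.p14, covering 250 bases before the gene's start to 50 after it. All sequences at hand are shown, and these genes read high together with shRNA 51 and low together on the UHRF1 array. Capitals mark the core of the metal response element, searched as TGCACNC or TGCGCNC, which reads GNGTGCA or GNGCGCA when it lies on the other strand. No matches overlapped in these promoters.
MT2A, chr16:56608334-56608633, plus strand: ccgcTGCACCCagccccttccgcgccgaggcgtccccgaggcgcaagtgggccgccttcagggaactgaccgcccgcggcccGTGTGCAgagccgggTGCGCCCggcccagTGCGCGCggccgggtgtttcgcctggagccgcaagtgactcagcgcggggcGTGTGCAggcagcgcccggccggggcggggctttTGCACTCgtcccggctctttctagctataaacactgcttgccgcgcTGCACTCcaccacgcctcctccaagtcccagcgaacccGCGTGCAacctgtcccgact
MT1B, chr16:56651636-56651935, plus strand: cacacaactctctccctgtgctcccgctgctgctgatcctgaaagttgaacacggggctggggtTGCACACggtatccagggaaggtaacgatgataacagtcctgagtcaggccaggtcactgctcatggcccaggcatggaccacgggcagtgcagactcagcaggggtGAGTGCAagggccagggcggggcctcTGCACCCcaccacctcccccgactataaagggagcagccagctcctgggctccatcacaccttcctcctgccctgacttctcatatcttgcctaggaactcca
MT1H, chr16:56669564-56669863, plus strand: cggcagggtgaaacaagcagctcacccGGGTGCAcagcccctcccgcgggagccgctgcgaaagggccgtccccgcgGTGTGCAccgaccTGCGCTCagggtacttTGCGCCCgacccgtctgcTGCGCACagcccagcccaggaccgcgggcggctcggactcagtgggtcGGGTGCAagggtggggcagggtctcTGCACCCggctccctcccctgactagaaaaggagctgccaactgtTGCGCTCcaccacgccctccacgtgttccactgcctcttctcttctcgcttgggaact
MT1X, chr16:56682220-56682519, plus strand: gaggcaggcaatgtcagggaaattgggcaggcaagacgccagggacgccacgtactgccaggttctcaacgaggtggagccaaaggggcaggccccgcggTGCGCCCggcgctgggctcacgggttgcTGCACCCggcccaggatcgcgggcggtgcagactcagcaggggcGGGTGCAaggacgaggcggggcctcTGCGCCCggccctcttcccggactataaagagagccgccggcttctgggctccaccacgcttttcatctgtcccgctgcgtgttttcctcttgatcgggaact

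The core occurred 8 times in the MT2A promoter, 8 times in MT1H, 4 times in MT1X and 3 times in MT1B. Of 35116 promoters of the same length, 29.6% held at least 1 match, 2.3% at least 3, 0.601% at least 4 and 0.0199% at least 8. Counted from the gene's start, MT1B, MT1H and MT1X each had a match whose first base lay at -53, and MT2A had one at -54. MT1H and MT1X had another at -78 and MT1B at -79. The promoters differed in CpG sites, where DNMT1 acts: MT2A held 37, MT1X 26, MT1H 25 and MT1B 7, against a median of 14 over all promoters. In RKO with shRNA 51, MT2A read 4.24, MT1X 3.19, MT1H 2.98 and MT1B 3.41, and which copy each probe read is uncertain. DNA methylation was not analysed here, and a match of letters is not a binding site.

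Genes that act with metallothioneins were read from 6 lists, of zinc export, zinc import, copper handling, the metal and antioxidant response, heat shock and the glucocorticoid response, with 66 genes tested. None passed over all lines in limma (smallest adjusted p = 0.258, HSPA1A), against 0.397% of all genes, and none passed between the hairpins (smallest limma adjusted p = 0.401, KEAP1). Without adjustment 5 and 3 of the 66 had p under 0.05, where 11.4% and 11.2% of all genes did. Their median was 0.14 over all lines and 0.073 for shRNA 51 minus shRNA 49, where all genes had 0.034 and 0.097.

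MTF1, the metal sensor that drives metallothionein genes, averaged -0.12 ± 0.16 over all lines (SE, n = 6, limma adjusted p = 0.822) and lay between -0.53 and 0.36 on the DNMT1 arrays; on 6 arrays it holds a ratio that other probes hold exactly, so it is uncertain. SLC30A1, a zinc exporter of the cell surface that MTF1 also drives, averaged 0.01 ± 0.27 (limma adjusted p = 0.997). It read 0.74 and 0.85 in DLD1 and HT29 with shRNA 51 but -0.81 in RKO, where the metallothioneins were highest. On the UHRF1 array it was -1.21, on the same side as the family, and MTF1 was -0.32. HMOX1, the haem oxygenase induced by metals and oxidants, read 1.11, -0.52 and 3.00 in DLD1, HT29 and RKO with shRNA 51 and averaged 0.49 ± 0.46 (limma adjusted p = 0.739). With shRNA 49 it read 0.24, -0.29 and -0.60 in these lines, and on the UHRF1 array -0.53.

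Among zinc exporters 0 of 9 passed in either direction, with SLC30A3 highest (0.42, limma adjusted p = 0.518) and SLC30A9 lowest (-0.34, limma adjusted p = 0.444). Of zinc importers 0 of 14 passed, from SLC39A4 at 0.40 to SLC39A10, an importer of the cell surface, at -0.57. Of genes that handle copper 0 of 8 passed, from the copper chaperone ATOX1 at 0.41 to the copper uptake channel SLC31A1 at -0.32. In the metal and antioxidant list 0 of 14 passed, from HMOX1 down to the cystine transporter SLC7A11 at -0.77. SLC7A11 holds ratios that other probes hold exactly on 5 arrays, SLC39A4 on 3 and SLC31A1 on 1. The list medians on the shRNA 51 arrays stayed between -0.11 and 0.41 in these 4 lists, next to 1.36 to 3.05 for metallothioneins.

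Heat shock genes had a median of 0.44 over all lines, with 10 of 11 above 0 and 0 passed. The median of all genes was itself above 0, at 0.034, and the share of all genes above 0 was not counted. HSPA1A, an inducible HSP70, averaged 1.54 ± 0.42 (SE, n = 6, limma adjusted p = 0.258) and was above 0 on 6 of 6 arrays. Without the HT29 array with shRNA 51 its fitted mean was 1.97 and passed (limma adjusted p = 0.0416). Over 14 alternatives the mean ranged from 0.84 to 1.97 (limma adjusted p from 0.0416 to 0.637). HSPA1A has a near-identical neighbour, HSPA1B, so which copy was read is uncertain. HSPD1, a mitochondrial chaperonin, was lowest at -0.09. The list's medians were highest in HT29 with shRNA 49 (1.05), where metallothioneins were lowest among the DNMT1 arrays (-0.75). Of the glucocorticoid list 0 of 10 passed, from NR3C1, the receptor, at 0.79 to KLF15 at -0.47; both hold ratios that other probes hold exactly, on 7 and 6 arrays.

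**Figure D4:**
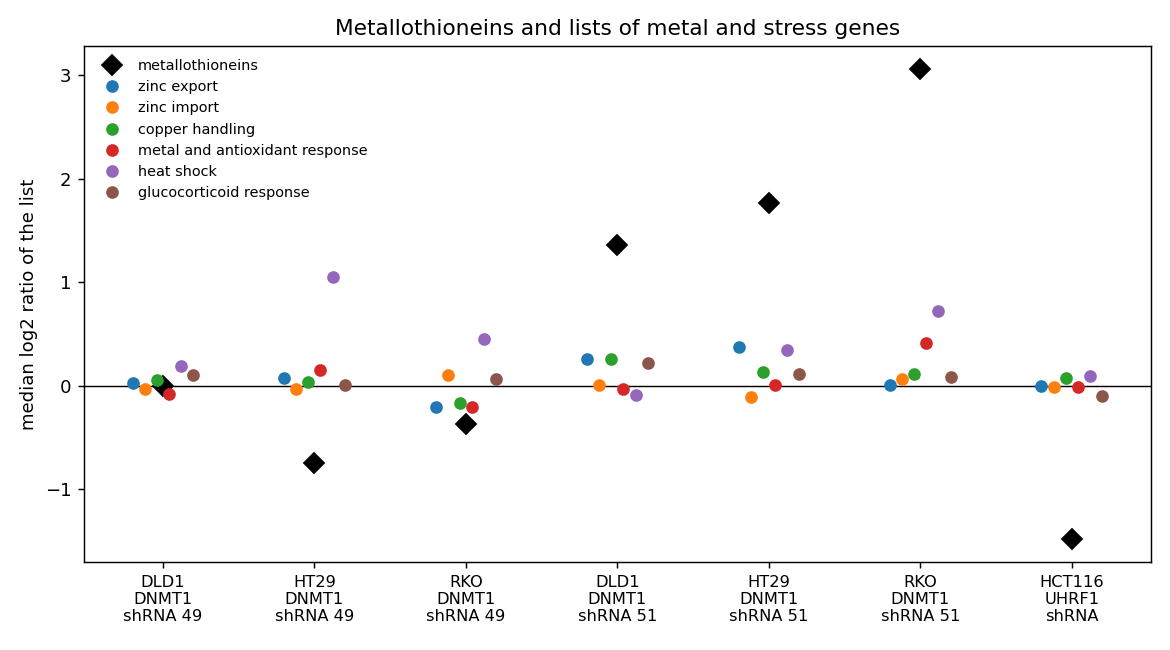
Median log2 ratio (vertical axis) of the metallothioneins (black diamonds) and of 6 lists of metal and stress genes (coloured circles) on the 7 arrays (horizontal axis). Metallothioneins stood at 1.36, 1.77 and 3.05 with DNMT1 shRNA 51 and at -1.48 on the UHRF1 array, while heat shock genes reached 1.05 in HT29 with shRNA 49.

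The cluster on chromosome 16 has other genes on both sides, and 20 of them, 10 on each side in RefSeq order, were measured. None passed over all lines in limma (smallest adjusted p = 0.441), and 0 had an unadjusted p under 0.05. Their median was -0.015 over all lines and 0.18 for shRNA 51 minus shRNA 49, with 15 of 20 higher with shRNA 51; over all genes that difference had a median of 0.097 and 57.3% were higher. The nearest measured gene on one side, BBS2, a gene of the ciliary BBSome, averaged -0.07 ± 0.17 (limma adjusted p = 0.911), and NUP93, a nuclear pore gene on the other, 0.10 ± 0.20 (limma adjusted p = 0.895). For shRNA 51 minus shRNA 49, BBS2 stood at 0.81 (limma adjusted p = 0.445) and was higher with shRNA 51 in 3 of 3 lines, and NUP93 stood at -0.04 (limma adjusted p = 0.976). OGFOD1, the gene after BBS2, stood at 0.62 (limma adjusted p = 0.476) and was also higher in 3 of 3 lines. On the other side SLC12A3, the gene after NUP93, stood at 0.86 (limma adjusted p = 0.434) and was higher in 3 of 3 lines too. The same held for GNAO1 at 0.60 and ARL2BP at 0.15. SLC12A3 and GNAO1 hold ratios that other probes hold exactly on 7 arrays. OGFOD1 and these genes were named after their values were seen, and the share of all genes higher in 3 of 3 lines was not counted. CES1, a carboxylesterase, had the highest mean (1.39 ± 0.68, SE, n = 5, limma adjusted p = 0.522), with 4.97 in HT29 with shRNA 51. Without the DLD1 array with shRNA 51 its fitted mean was 2.53. That fit gives both hairpins about equal weight, and 4.97 in HT29 was the only shRNA 51 value left. CES5A was lowest at -0.41. CES1 holds ratios that other probes hold exactly on 4 of the 7 arrays and CES5A on 6, so both are uncertain. On the UHRF1 array the neighbours had a median of 0.32 and the metallothioneins -1.48.

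Inside the cluster, MT1JP and MT4 have a probe but were not among the 10. MT1JP, a pseudogene, read 0.57, 1.94 and 2.68 with shRNA 51, -0.97, -0.40 and -0.30 with shRNA 49, and 0.68 on the UHRF1 array, and on 4 of these arrays the ratio was one that other probes hold exactly. MT4, the metallothionein of stratified squamous epithelium, held such a ratio on all 6 arrays that gave it a value, between -0.64 and 2.15, so its values are uncertain.

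**Figure D5:**
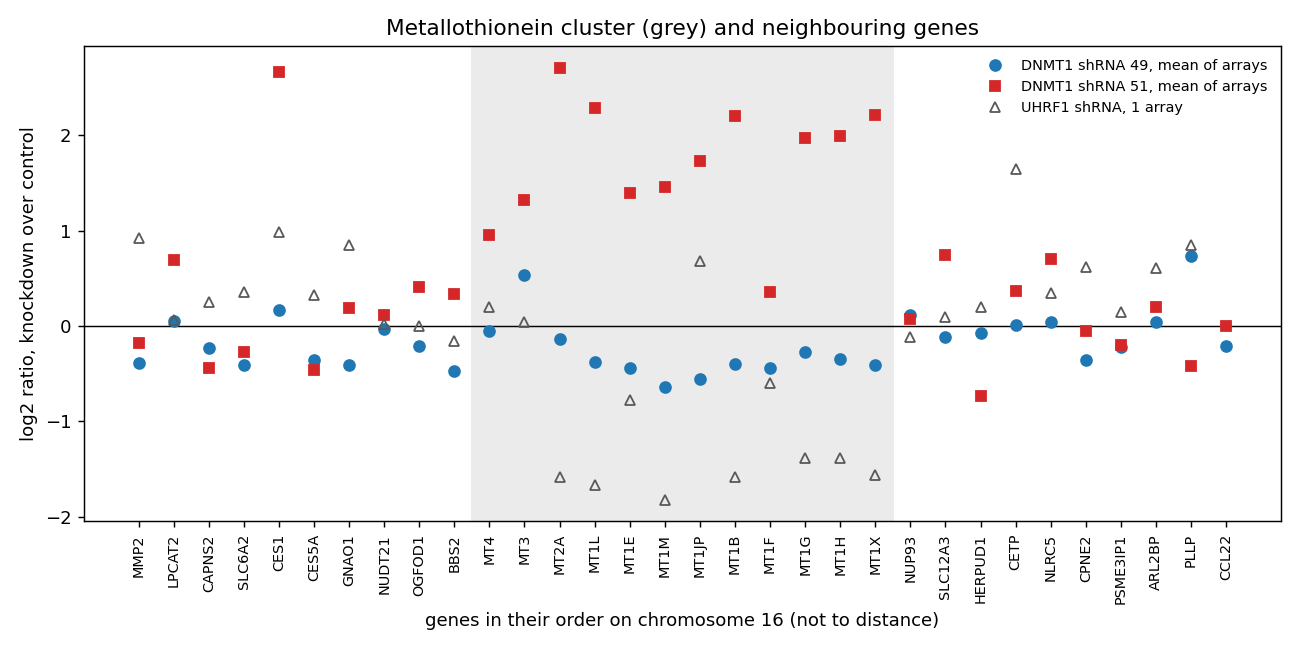
Log2 ratio (vertical axis) of genes in their order on chromosome 16 (horizontal axis, not to distance), with metallothionein genes on grey. Blue circles are means with DNMT1 shRNA 49, red squares means with shRNA 51, and open triangles the 1 UHRF1 array; a mean is over the arrays with a value. Among the metallothioneins MT2A was highest with shRNA 51 (2.71) and MT1F lowest (0.35), and CES1 was the highest neighbour.

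Outside the family, the 5 genes whose values over the 7 arrays were most like the family median were CSAG1 (Pearson r = 0.985), BDKRB2 (0.978), POTED (0.973), RGMA (0.970) and PRDM9 (0.969). They were sought among 10616 genes measured on every array whose values spanned at least 1, of which 107 outside the family, or 1.01%, had r above 0.9. All these values come from the same 7 arrays, and so from the same RNA and dyes for every gene. CSAG1, an antigen gene of tumours and testis, read 3.81, 3.44 and 5.46 with shRNA 51, 1.34, 1.18 and 1.05 with shRNA 49, and -0.07 on the UHRF1 array and so lay above 0 with shRNA 49, where the family median did not exceed 0.001. BDKRB2, a bradykinin receptor, read 0.76, 1.39 and 2.10 with shRNA 51, -0.22, -0.16 and -0.56 with shRNA 49, and -0.96 on the UHRF1 array. RGMA and PRDM9 hold ratios that other probes hold exactly on 7 and 6 arrays, so their values are uncertain.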

How the data were processed

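The deposited values are 1 log2 ratio per probe and array, made by the authors with limma (no version given), per the submitters' processing notes. Their log base, background correction, normalization and direction are unstated in the labels and notes. Signal strengths were not used, dim probes were not filtered, and the number of arrays limits the precision. Of the 41000 probes, 29341 had 1 symbol in the platform annotation, 33 several and 11626 none listed; 99.9% of those with 1 symbol matched a RefSeq gene (GRCh38.p14). Probes of a symbol were averaged. Genes were tested across the whole table with limma 3.58.1 in R 4.3.3, two-sided, with Benjamini-Hochberg adjustment. The shRNA 49 mean needed values on at least 2 of 3 arrays, the other fits on at least 5 of 6. The all-lines mean had the hairpin, centred, as covariate and the line as random block (correlation 0.165). Both hairpins thus weigh about alike in it, also where an array has no value or is left out. The hairpin difference had the line as a term, since arrays of a line pair. Members, lists and the rule for named genes (all members, MTF1, SLC30A1, HMOX1, list extremes, nearest neighbours, passing genes and the 5 most alike) were chosen with earlier results of these data known. The fits were tested on simulated data with log2 changes of 2 and 4. For a change of 2, 30% of changed genes were recovered between lines, 74% between hairpins, 96% over all lines and 100% with shRNA 49. Of 225 calls with shRNA 49, 25 were false. Smaller changes were not simulated.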

Additional observations from a re-analysis of the deposited data

Results flagged for a closer look

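MT1E, MT1G, MT1H and MT1X were below 0 on every shRNA 49 array and above 0 on every shRNA 51 array. Their means with shRNA 51 exceeded those with shRNA 49 by 1.83, 2.25, 2.35 and 2.62 on the log2 scale. This split of signs held for 4 of the 10 metallothioneins and for 533 of 15793 genes with values on all DNMT1 arrays (3.37%). The split of signs was not tested. The limma fit of shRNA 51 minus shRNA 49 across all genes called 0 of the 10 members, but it holds the values that chose the family, so nothing is read from it, and the hairpin and the dye cannot be told apart. In DLD1 the shRNA 49 values of these genes lay between -0.07 and -0.02, close to 0, and 1 of the 2 probes of MT1E was itself below 0 in DLD1 with shRNA 51 (-0.09). The other MT1E probe read 0.05 in DLD1 with shRNA 49, and 1 probe of MT1G read 0.02 there. The MT1E mean was below 0 there only through the probe at -0.10, a ratio that other probes of the array hold exactly. Each group had 3 DNMT1 arrays or 1 UHRF1 array, too few to look for single arrays that stand apart.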

How the results depend on the processing

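With shRNA 49, 0 of 10 members were called under all 10 alternatives: quantile normalization, array medians set to 0, the median of a gene's probes, shared ratios left out, a robust prior, a spread shared with shRNA 51, complete values, and leaving out each of the 3 arrays. The smallest limma adjusted p over these was 0.459. The sign of a member's mean held in 99 of 100 such values; that of MT2A ranged from -0.41 to 0.24 as 1 array was left out, and was above 0 without HT29. The lists gave between 0 and 1 called gene over all lines as 1 array was left out (HSPA1A without HT29, shRNA 51). Between the hairpins the lists gave 0 under 13 alternatives. The neighbours gave 0 over all lines apart from CES1 without DLD1, shRNA 51, where its fit held 1 shRNA 51 value. Dropping the line as a block changed no call. The family median averaged -0.38 to -0.36 with shRNA 49 and 2.01 to 2.06 with shRNA 51, and was -1.57 to -1.48 on the UHRF1 array, where 7 or 8 members were at least 2-fold lower, over 3 alternatives each.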

Other observations

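Of 8 epithelial genes 0 passed over all lines in limma (1 had an unadjusted p under 0.05), from EPCAM, an epithelial adhesion molecule, at 1.19 (limma adjusted p = 0.533) to KRT20, an intestinal keratin, at -0.64 (limma adjusted p = 0.369). EPCAM read 4.74 and KRT19 4.13 in RKO with shRNA 51, where the list's median was -0.54. The rest of the list lay below 0 there, down to KRT8 at -1.95. Of 10 tested genes of fibroblasts, endothelium and blood 0 passed (2 unadjusted), from PECAM1, of endothelium, at 1.32 (limma adjusted p = 0.172) to COL3A1, a collagen of fibroblasts, at -0.20 (limma adjusted p = 0.914). PECAM1 holds ratios that other probes hold exactly on 4 arrays, COL3A1 on 7 and KRT20 on 2, so these are uncertain.

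The members' order on the UHRF1 array from the lowest ratio among 18175 genes was 63 for MT1M, 87 for MT1L, 103 for MT2A, 105 for MT1B, 122 for MT1X, 178 for MT1H and 179 for MT1G, then 731 for MT1E, 1187 for MT1F and 9342 for MT3. The direction on this array is less certain, and were its sign turned these would be ranks from the highest ratio. MT2A read above the median of MT1B, MT1G, MT1H, MT1L and MT1X by 0.75 and 1.05 in RKO with shRNA 49 and shRNA 51, by 0.11 and 0.49 in DLD1, and by -0.10 and 0.22 in HT29, and the difference was not tested.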
